A study of Mus musculus with 15 samples.

Results

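The 10 genes described here encode the purinergic and bradykinin receptors P2ry1, P2ry2, P2ry6, P2ry12, P2rx4, P2rx7, Adora1, Adora2b, Bdkrb1 and Bdkrb2, out of 53801 genes in the count table. They were picked by name, with earlier results of the same libraries in view, and each was matched to its symbol by Ensembl identifier. RNA-seq was carried out on primary adult neural stem cells (aNSCs) of 2-month-old mice of the C57BL6/J-129sv background, taken from the subventricular zone and grown in suspension with EGF and bFGF. All cultures carried the Rosa26-CreERT2 transgene, in which a promoter active in nearly every cell type drives a recombinase that works only once 4-hydroxytamoxifen (4-OHT) is given, so the controls carried it as well. Trrap, which encodes an adaptor shared by several histone acetyltransferase complexes, carried loxP sites on a single allele in Fl/+ cultures and on both alleles in Fl/Fl cultures. The 3 groups of 5 cultures were Fl/+ cultures left untreated, Fl/+ cultures given 4-OHT for 5 days by the labels, in which 1 Trrap allele can be lost, and Fl/Fl cultures given 4-OHT likewise. The study's methods describe a shorter exposure followed by fresh medium. Both Fl/+ groups carry the title numbers 19, 24, 26, 35 and 36, and the Fl/Fl group 27, 28, 29, 37 and 39. Untreated Fl/Fl cultures and cultures without the transgene were not analysed here, so an effect of 4-OHT, of the active recombinase and of the loss of 1 Trrap allele cannot be told apart within Fl/+.

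Extracellular nucleotides leave cells through channels and vesicles and act on 2 receptor families. P2X receptors are cation channels opened by ATP, and P2Y receptors are G-protein-coupled receptors for ATP, UTP, ADP or UDP. Ectoenzymes on the cell surface break ATP down to adenosine, which acts on its own family, the adenosine receptors. Kinins are short peptides cut from kininogens, and they act on Bdkrb2, usually present on resting cells, and on Bdkrb1, usually induced by injury. Neural stem cells and glia of the subventricular zone are known to release ATP and to answer it with calcium signals, whereas P2ry12 is best known in brain as a receptor of microglia.

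RefSeq promoters on GRCm38.p6 were found for 8 of the 10 genes, in 11 windows. P2ry6 and Bdkrb1 had no entry. The 250 bases before the start are shown for Bdkrb2, which was far higher in both 4-OHT groups than in untreated cultures, for Adora2b, the receptor with the largest difference downwards, and for P2rx4, the gene that passed the threshold after Trrap deletion. Capitals mark the GC box, the letters GGGCGG on either strand, the motif read by the Sp1 family that the study is concerned with.
Bdkrb2, chr12:105562922-105563171, plus strand: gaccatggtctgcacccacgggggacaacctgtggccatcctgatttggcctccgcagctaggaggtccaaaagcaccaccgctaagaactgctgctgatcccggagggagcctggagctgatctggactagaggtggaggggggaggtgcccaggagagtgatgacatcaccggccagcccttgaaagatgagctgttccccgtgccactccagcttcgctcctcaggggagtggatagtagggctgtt
Adora2b, chr11:62248734-62248983, plus strand: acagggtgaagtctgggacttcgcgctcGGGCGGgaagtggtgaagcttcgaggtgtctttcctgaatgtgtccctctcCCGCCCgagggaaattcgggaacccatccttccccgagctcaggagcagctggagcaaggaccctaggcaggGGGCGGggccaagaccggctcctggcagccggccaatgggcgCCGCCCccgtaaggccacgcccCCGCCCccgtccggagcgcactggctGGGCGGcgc
P2rx4, chr5:122707294-122707543, plus strand: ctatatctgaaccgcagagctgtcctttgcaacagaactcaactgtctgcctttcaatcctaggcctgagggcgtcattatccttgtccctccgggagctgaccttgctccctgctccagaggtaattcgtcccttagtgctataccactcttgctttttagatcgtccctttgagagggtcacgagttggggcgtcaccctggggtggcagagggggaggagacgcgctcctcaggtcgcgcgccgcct
The Adora2b window held 6 GC boxes, and the Bdkrb2 and P2rx4 windows held 0. Over all members, 6 of the 11 windows had at least 1 GC box, and these belonged to 5 of the 8 genes. Of 32851 mouse promoters of the same length, 32.7% had one. The AP-1 motif (TGACTCA, on the other strand TGAGTCA) was found in 1 member window, that of P2rx7, against 4.46% of all promoters. These matches describe the letters of the windows and say nothing on whether a factor was bound.

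The libraries held 25720034 to 32187097 counts assigned to genes, and levels are given as CPM, the usual depth-scaled count, on TMM-scaled library sizes. The floor of detection was 3 counts, or 0.0932 to 0.117 CPM on total counts without the TMM scaling. Trrap lay between 82.8 and 142 CPM in the Fl/Fl libraries, between 138 and 204 CPM in the Fl/+ 4-OHT libraries and between 179 and 214 CPM in the untreated ones. It fell by 0.64 on the log2 scale in Fl/Fl against Fl/+ 4-OHT cultures (SE 0.16, adjusted p = 0.0115, edgeR quasi-likelihood test), with Fl/Fl 29 above the lowest Fl/+ library. Counts over the whole gene do not separate the floxed segment from the rest. The library labelled Fl/Fl 39 is labelled female but held 6142 counts of 4 Y-linked genes and 9 of Xist, against its label. The library labelled Fl/+ 4-OHT 36, labelled male, held 2117 Xist counts beside 5816 Y-linked ones, and its untreated partner held 160 Xist counts. Fl/Fl 37 stood apart in glial markers, with Gfap at 2266 CPM against 232 to 533 CPM and Mbp at 1014 CPM against 81.1 to 154 CPM in the other Fl/Fl libraries. The labels do not say that the cultures were independent beyond their numbers, so the spread between libraries may in part be technical.

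**Figure D1:**
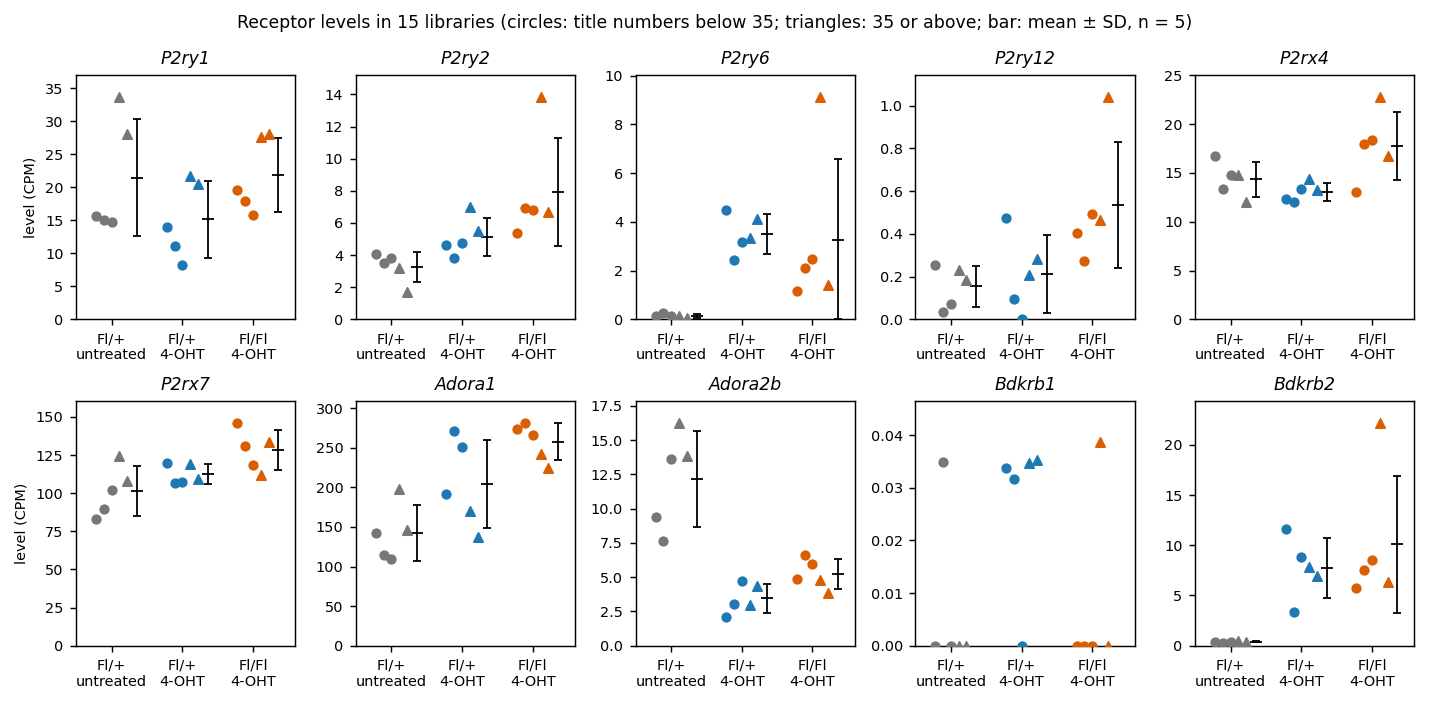
Level in CPM (vertical axes, linear, from 0) of the 10 receptor genes in each of the 15 libraries, by group. Circles are title numbers below 35, triangles are 35 or above, and the bars give mean ± SD (n = 5), cut at 0 and left out for Bdkrb1. P2ry6 and Bdkrb2 are close to 0 in all untreated libraries, Adora2b is highest there, and 1 Fl/Fl library, number 37, stands high for P2ry2, P2ry6 and Bdkrb2.

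Per kilobase of exon, the scale on which levels can be set between genes, Adora1 and P2rx7 were the most abundant members in every group. In untreated Fl/+ cultures Adora1 reached 24.6 ± 6.02 CPM per kb and P2rx7 17.0 ± 2.73 (SD, n = 5 here and below), and their libraries overlapped. Adora2b (6.59 ± 1.90) and P2ry1 (5.00 ± 2.07) came next and overlapped each other. P2rx4 (2.04 ± 0.251) and P2ry2 (0.828 ± 0.236) followed, each separated from its neighbours. Bdkrb2 (0.104 ± 0.0179), P2ry12 (0.0608 ± 0.0383) and P2ry6 (0.0499 ± 0.0255) lay lower, with overlapping libraries, and Bdkrb1 (0.00486 ± 0.0109), at or under 1 count in each library, was last. In Fl/+ 4-OHT cultures Adora1 (35.3 ± 9.65) and P2rx7 (18.8 ± 1.11) were separated from the rest and from each other. P2ry1 followed (3.53 ± 1.36), and Bdkrb2 stood among Adora2b, P2rx4, P2ry2 and P2ry6, all between 1.22 and 2.04 CPM per kb, each of whose libraries overlapped those of the next. The order in Fl/Fl cultures had the same 3 leading genes, Adora1 (44.6 ± 4.06), P2rx7 (21.5 ± 2.21) and P2ry1 (5.09 ± 1.32), and here each was separated from the next.

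The first comparison, Fl/+ 4-OHT against untreated Fl/+ cultures, asks what treatment and recombination do in control cells. Bdkrb2, the B2 kinin receptor that couples to Gq and phospholipase C, was about 20 times as high after 4-OHT. The uridine nucleotide receptor P2ry6, also coupled to Gq, was higher by a similar factor, and Adora2b, the Gs-coupled low-affinity adenosine receptor, was at under 30% of its untreated level. These contrasts were in view when the genes were picked, so the values below are a description and carry no p. Of the 8 members that passed the filter on low counts, 3 had an adjusted p under 0.05, 2 higher and 1 lower, where 13.8% of the 14821 genes tested did (7.34% higher and 6.45% lower), and the same 3 had groups that did not overlap, where 12.0% of all genes did. Nothing is read from these counts.

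Bdkrb2 (chr12:105563226-105595237, plus strand) stood at 0.398, 0.314, 0.385, 0.501 and 0.368 CPM in untreated cultures 19, 24, 26, 35 and 36, from 9 to 13 counts each. After 4-OHT the same numbers gave 11.6, 3.39, 8.81, 7.84 and 6.99 CPM. All 5 treated libraries lay above all untreated ones, number 24 with the smallest rise within a pair, by a factor of 10.8, and number 19 with the largest, by 29.2. The log2 fold change was 4.29 ± 0.33 (SE), from a mean of 0.393 ± 0.0680 to 7.73 ± 2.99 CPM.

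P2ry6 (chr7:100937630-100974649, minus strand) had 4, 7, 4, 4 and 1 counts in untreated cultures 19, 24, 26, 35 and 36, and 133, 77, 80, 96 and 117 counts after 4-OHT. On the CPM scale this is 0.0368 to 0.244 against 2.44 to 4.50. The groups were far apart, and the untreated libraries lay near the floor. The log2 fold change was 4.56 ± 0.35. Within pairs the ratio was 9.98 to 31.1 over the 4 pairs in which the untreated culture had more than 3 counts.

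Adora2b (chr11:62248984-62266453, plus strand) was at 9.42, 7.68, 13.7, 16.3 and 13.8 CPM in untreated cultures 19, 24, 26, 35 and 36 and at 2.10, 3.07, 4.74, 2.95 and 4.38 CPM after 4-OHT. Every treated library lay below every untreated one. The log2 fold change was -1.82 ± 0.27, and the ratio within pairs was 0.182 to 0.400. Its relative Adora1, the Gi-coupled adenosine receptor of high affinity, moved in opposite ways within pairs. It was 1.34, 2.36 and 2.28 times its untreated level in numbers 19, 24 and 26, and 0.865 and 0.937 times in numbers 35 and 36. The group means were 142 ± 34.8 and 204 ± 55.8 CPM, with a log2 fold change of 0.52 ± 0.21.

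P2ry1, the Gq-coupled ADP receptor, was lower after 4-OHT in 5 of 5 pairs, with ratios of 0.561 to 0.893, although the groups overlapped (21.4 ± 8.87 and 15.1 ± 5.83 CPM). Its log2 fold change was -0.50 ± 0.32 without pairing and -0.50 ± 0.12 with the title number as a replicate block (-0.28 without untreated 35 and without pairing), and it was past the threshold in the blocked fit, which gave 4 of 8 members, where 25.7% of all genes passed with the block (13.8% higher and 11.9% lower). It also passed with a term for title numbers of 35 or above, and in no other alternative. P2ry2, the ATP and UTP receptor, was higher in 5 of 5 pairs, by 1.098 to 3.25 times, with means of 3.25 ± 0.928 and 5.14 ± 1.19 CPM and a log2 fold change of 0.66 ± 0.25. Its ratios were 1.098 to 1.25 in numbers 19, 24 and 26 and 2.18 and 3.25 in numbers 35 and 36. The ATP-gated channels moved least. P2rx4 went from 14.3 ± 1.76 to 13.1 ± 0.943 CPM (log2 fold change -0.13 ± 0.12) and P2rx7, the channel known for opening a large pore at high ATP, from 102 ± 16.3 to 112 ± 6.60 CPM (0.15 ± 0.11). P2ry12 had 1 to 7 counts in untreated and 0 to 14 in treated libraries and did not pass the filter, nor did Bdkrb1, which had 6 counts in all over the 15 libraries and never more than 1 in a library.

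**Figure D2:**
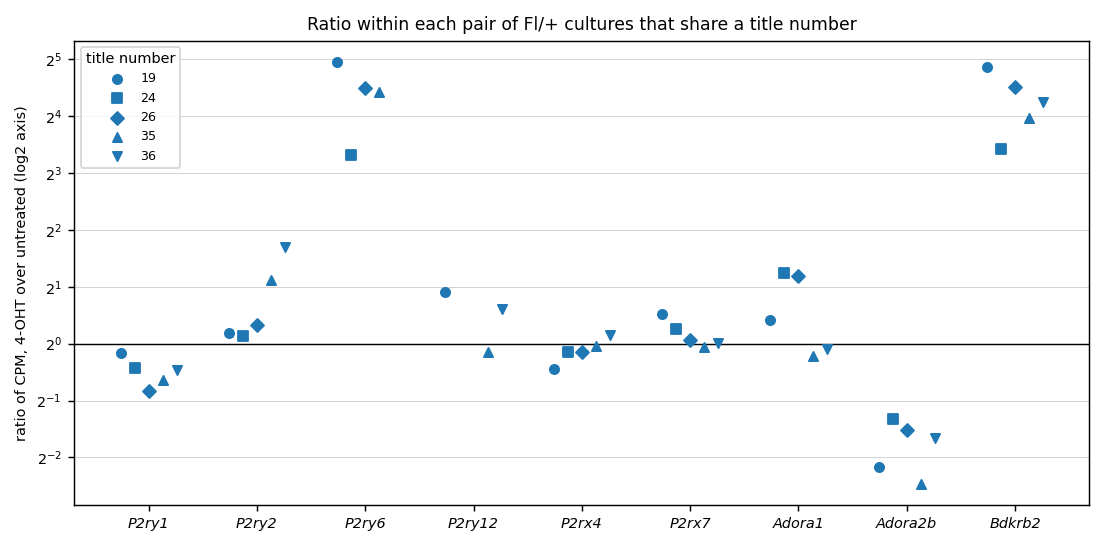
Ratio of the CPM after 4-OHT to the CPM of the untreated Fl/+ culture of the same title number (vertical axis, log2 scale), one symbol per number, for the 9 receptor genes with counts above the floor. Pairs whose untreated culture had at most 3 counts are left out. The 5 Bdkrb2 ratios run from 10.8 to 29.2, the 5 Adora2b ratios from 0.182 to 0.400, and the Adora1 ratios lie on both sides of 1.

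The second comparison, Fl/Fl against Fl/+ cultures that were both given 4-OHT, sets the possible loss of both Trrap alleles beside that of 1. No member separated the groups here, where 22.6% of all genes tested did. P2rx4, an ATP-gated channel, was 1.37 times as high in Fl/Fl cultures. The P2rx4 levels were 12.3, 12.0, 13.4, 14.4 and 13.3 CPM in Fl/+ 4-OHT cultures 19, 24, 26, 35 and 36 and 13, 17.9, 18.3, 22.8 and 16.7 CPM in Fl/Fl cultures 27, 28, 29, 37 and 39. Of the Fl/Fl libraries, 4 lay above all Fl/+ ones and number 27 lay among them. The log2 fold change was 0.46 ± 0.14. P2rx4 was the 1 of 9 members tested with an adjusted p under 0.05, where 31.7% of the 15036 genes tested passed (16.8% higher and 15.0% lower), and it lost that call when Fl/+ 19, 24 or 36 or Fl/Fl 28, 29 or 37 was left out (log2 fold change 0.34 to 0.55 over all alternatives).

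Among P2Y receptors, P2ry1 was at 21.8 ± 5.66 against 15.1 ± 5.83 CPM (0.54 ± 0.26) and P2ry2 at 7.93 ± 3.37 against 5.14 ± 1.19 CPM (0.64 ± 0.26). For P2ry2 the Fl/Fl libraries read 5.35, 6.91, 6.82, 13.9 and 6.71 CPM, so 1 library, number 37, stood far above the rest, and without it the log2 fold change was 0.33. The Gi-coupled ADP receptor P2ry12 had 13, 8, 15, 12 and 30 counts in Fl/Fl cultures 27, 28, 29, 37 and 39 and 14, 3, 0, 6 and 8 in Fl/+ 4-OHT cultures 19, 24, 26, 35 and 36. Its log2 fold change of 1.32 ± 0.60 rests on these low counts, and it passed the filter only through the Fl/Fl group. P2rx7 stood at 128 ± 13.2 against 112 ± 6.60 CPM (0.21 ± 0.08), Adora1 at 258 ± 23.5 against 204 ± 55.8 CPM (0.35 ± 0.17) and Adora2b at 5.22 ± 1.09 against 3.45 ± 1.09 CPM (0.62 ± 0.24).

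Fl/Fl 37 decided the values of P2ry6 and Bdkrb2 in this comparison. P2ry6 read 1.15, 2.11, 2.49, 9.13 and 1.39 CPM in Fl/Fl cultures 27, 28, 29, 37 and 39, against 2.44 to 4.50 CPM in Fl/+ 4-OHT cultures. 3 of the Fl/Fl libraries lay below all Fl/+ ones and number 37 above them all. The log2 fold change was -0.11 ± 0.50 over all libraries and -0.97 without number 37, where P2ry6 passed the threshold. Bdkrb2 read 5.78, 7.55, 8.53, 22.2 and 6.36 CPM, with a log2 fold change of 0.39 ± 0.40, and of -0.13 without number 37, which turns its direction. The same library held the highest Gfap and Mbp of its group, and what part this has in its receptor levels was not tested.

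The third comparison, Fl/Fl 4-OHT against untreated Fl/+ cultures, shares its libraries with the other two, so its values are no further evidence. 6 of 8 members tested had an adjusted p under 0.05, 5 higher and 1 lower, where 30.7% of 15032 genes did (15.7% higher and 15.1% lower), and 5 had groups that did not overlap, where 23.1% did. P2ry6 and Bdkrb2, with 1 to 7 and 9 to 13 counts in untreated libraries, passed the filter only through the Fl/Fl group. Nothing is read from the numbers of members called or separated. Bdkrb2 was 25.6 times and P2ry6 22 times its untreated level, with log2 fold changes of 4.68 ± 0.43 and 4.46 ± 0.69, or 4.17 and 3.60 without Fl/Fl 37. P2ry2 was higher by 1.30 ± 0.30 and Adora1 by 0.87 ± 0.15 on the log2 scale, and for both the lowest Fl/Fl library lay above the highest untreated one, at 5.35 against 4.06 CPM for P2ry2 and at 225 against 198 CPM for Adora1. Adora2b was lower (-1.21 ± 0.23), with Fl/Fl libraries at 3.86 to 6.63 CPM against 7.68 to 16.3 CPM. P2rx7 was higher by 0.35 ± 0.12 with overlapping groups, and lost its call without Fl/+ untreated 19, 24 or 26 or Fl/Fl 27, 28, 29 or 39 and with no filter on low counts, with log2 fold changes of 0.28 to 0.45 over all alternatives. P2rx4 (0.32 ± 0.15) and P2ry1 (0.04 ± 0.27) were not past the threshold. P2ry12 did not pass the filter here, with 1 to 7 counts in untreated and 8 to 30 in Fl/Fl libraries, but it was tested and past the threshold with no filter, with all 15 libraries in one fit, and without any one untreated library or Fl/Fl 28. With untreated counts this low it enters such fits through the Fl/Fl group, so nothing is read from these calls.

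**Figure D3:**
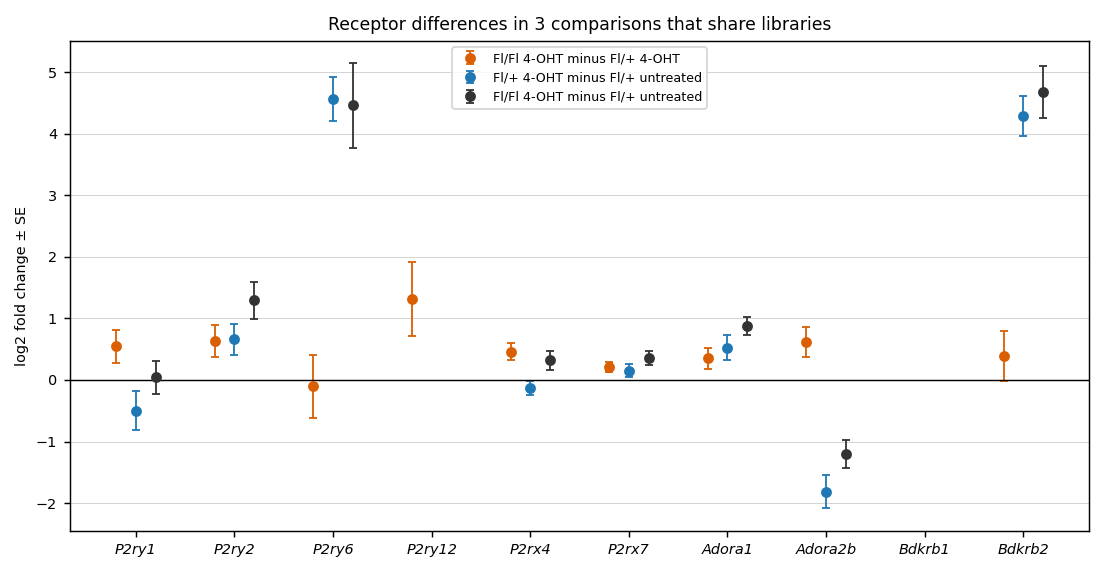
Log2 fold change ± SE (vertical axis) of each member in the 3 comparisons, from the edgeR fits. The comparisons share libraries. P2ry12 passed the filter only in Fl/Fl against Fl/+ 4-OHT cultures and Bdkrb1 in none. P2ry6 and Bdkrb2 lie above 4 in both comparisons with untreated cultures and near 0 between the 4-OHT groups, with Bdkrb2 at 0.39 and P2ry6 at -0.11, and Adora2b lies below 0 in the first pair and at 0.62 in the last.

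P2ry1 followed the title numbers in all groups. Numbers 35 and 36 read 33.7 and 28.1 CPM in untreated Fl/+ cultures, where 19, 24 and 26 read 14.7 to 15.7 CPM. After 4-OHT they read 21.7 and 20.5 CPM against 8.26 to 14 CPM, and the Fl/Fl cultures 37 and 39 read 27.7 and 28.0 CPM against 15.8 to 19.7 CPM in 27, 28 and 29. Numbers of 35 or above were the highest in every group for 2.91% of 15032 genes, and the lowest in every group for 3.19%, of which Adora2a, another adenosine receptor, was one. The labels do not say what the numbers stand for beyond the culture. With a term for numbers of 35 or above, an alternative chosen after seeing the data, P2ry1, P2ry2, Adora1 and P2rx4, or 4 of 9 members, had an adjusted p under 0.05 in Fl/Fl against Fl/+ 4-OHT cultures, where 36.3% of all genes did. The log2 fold changes hardly moved, with P2ry1 at 0.58 ± 0.14 and Adora1 at 0.38 ± 0.12.

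The choice of the genes named the 3 groups and not labelled sex, so whether the genotype difference varied with labelled sex was tested with an interaction term over all genes. P2ry1 gave an interaction of 1.56 ± 0.29 on the log2 scale (labelled females minus labelled males, adjusted p = 0.0243, edgeR) and Adora1 of -0.91 ± 0.18 (adjusted p = 0.0282, edgeR). Thus 2 of 9 members passed, where 7.34% of all genes did (3.75% with a positive and 3.58% with a negative interaction). Both calls were lost without Fl/+ 26, 35 or 36 or Fl/Fl 29 (interactions of 1.364 to 1.499 and -0.96 to -0.77), and that of Adora1 also without Fl/+ 24 or Fl/Fl 27, 28 or 37 (-0.96 to -0.85). P2ry1 averaged 27.9 CPM in the 2 labelled-female Fl/Fl libraries against 9.72 CPM in the 2 labelled-female Fl/+ 4-OHT ones, and 17.8 against 18.7 CPM in the labelled males. Adora1 averaged 234 against 261 CPM in labelled females and 274 against 167 CPM in labelled males. Both Fl/Fl libraries labelled female, 37 and 39, are also the ones numbered 35 or above, and number 39 goes against its label. In the Fl/+ 4-OHT group the libraries numbered 35 and 36 are labelled male, so a difference between title numbers also enters the interaction. Without Fl/Fl 39 the interactions were 1.56 ± 0.33 for P2ry1 and -0.84 ± 0.21 for Adora1 (adjusted p = 0.0277 and 0.0490, edgeR), and P2ry2 (1.51 ± 0.36, adjusted p = 0.0388, edgeR) and P2ry6 (2.75 ± 0.50, adjusted p = 0.0165, edgeR) passed as well, on a single labelled-female Fl/Fl library, 37, that is assumed to vary like the rest. With the term for numbers of 35 or above, P2ry1 gave 0.56 ± 0.41 and Adora1 -0.38 ± 0.29 (adjusted p = 0.846 and 0.853, edgeR), 0 of 9 members passed, 2 of 9 (Adora2b and P2ry12) had an unadjusted p under 0.05, and of all genes 1 passed. Adora2a, a further receptor, gave -2.19 ± 0.32 (adjusted p = 0.0161, edgeR), kept its call whichever library was left out, and gave -1.81 ± 0.63 with the term for numbers (adjusted p = 0.827, edgeR). No other tool was run on the interaction. In Fl/Fl cultures labelled sex and number cannot be told apart.

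Of 11 further receptors of the same families, 4 were tested with 4-OHT in Fl/+ cultures and 1 passed, Adora2a, where 13.8% of all genes did. This Gs-coupled adenosine receptor was at 29.7, 28.8, 17.4, 4.81 and 2.91 CPM in untreated cultures 19, 24, 26, 35 and 36 and at 54.3, 134, 121, 50.5 and 42.6 CPM after 4-OHT. It was higher in 5 of 5 pairs, by 1.83 to 14.7 times, and the groups did not overlap. It rose by 2.27 ± 0.61 on the log2 scale (adjusted p = 0.0315, edgeR; adjusted p = 0.00230 with the replicate block), opposite to Adora2b, and the unblocked call was lost without untreated 26 or 35 or treated 24 or 26, with log2 fold changes of 2.02 to 2.28. In Fl/Fl cultures it read 34.3 to 71.0 CPM, which was 1.58 ± 0.56 above untreated (adjusted p = 0.0519, edgeR, under 0.05 in 8 alternatives, DESeq2 among them) and -0.68 ± 0.36 against Fl/+ 4-OHT (adjusted p = 0.174, edgeR). The channel genes that passed the filter were P2rx3, P2rx5 and P2rx6 in all comparisons and P2rx2 in Fl/Fl against Fl/+ 4-OHT cultures. P2rx3 and P2rx5 averaged under 1.5 CPM in every group. P2rx6 was the most abundant of them, at 5.87 ± 1.84 CPM in untreated, 6.0 ± 0.816 in Fl/+ 4-OHT and 5.87 ± 1.18 in Fl/Fl cultures, and the adjusted p of all 4 genes lay between 0.138 and 0.975 (edgeR). In Fl/Fl against untreated cultures P2rx2 did not pass the filter, but it was called with no filter, with all 15 libraries in one fit, and without any one untreated library or Fl/Fl 29. With its low untreated counts P2rx2 enters the filtered fits through the Fl/Fl group, so nothing is read from these calls. P2rx3 was called without Fl/Fl 39. P2ry10, P2ry13, P2ry14 and Adora3 had no count in any library, which allows up to 3 counts in each.

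Genes around the receptors were grouped by role, 65 in all, of which 47 were tested in each comparison. In Fl/Fl against Fl/+ 4-OHT cultures 15 of 47 passed, 5 higher and 10 lower, or 31.9% where all genes gave 31.7%. With 4-OHT in Fl/+ 9 of 47 passed, 6 higher and 3 lower, or 19.1% against 13.8% of all genes, and with the replicate block 19 of 47, 10 higher and 9 lower, against 25.7% of all genes. Whether these shares differ from those of all genes was not tested.

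In nucleotide release and hydrolysis, 4 of 10 genes tested passed after Trrap deletion, 2 each way, where 31.7% of all genes did. Panx1, the pannexin channel that lets ATP out of cells, fell from 52.5 to 26.3 CPM (log2 fold change -0.98 ± 0.09, adjusted p = 6.62e-05, edgeR). Of the ectoenzymes that cut ATP, Enpp3 fell by 1.87 on the log2 scale (SE 0.23, adjusted p = 0.000295, edgeR) and Enpp1 rose by 1.25 ± 0.25 (adjusted p = 0.00384, edgeR). After 4-OHT in Fl/+ the phosphatase gene Alpl fell from 166 to 97.5 CPM (-0.77 ± 0.17, adjusted p = 0.0124, edgeR). Nt5e, the ectoenzyme that makes adenosine from AMP, read 10.03 CPM in untreated, 11.1 in Fl/+ 4-OHT and 10.5 in Fl/Fl cultures, with adjusted p of 0.808 and 0.820 (edgeR). Among 4 genes of adenosine uptake and metabolism, the transporter gene Slc29a1 fell after Trrap deletion from 42.8 to 26.5 CPM (-0.68 ± 0.14, adjusted p = 0.00370, edgeR).

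Kinin formation had few genes to test. The kininogen genes Kng1 and Kng2 had 1 and 0 counts over all libraries, and the genes of the proteases that free kinins, Klkb1 and Klk1, had 6 and 0. Of the 5 genes of breakdown and control that were tested, Ace, whose product degrades bradykinin, rose after Trrap deletion from 3.96 to 8.71 CPM (1.15 ± 0.33, adjusted p = 0.0230, edgeR), a call lost without Fl/+ 19 or Fl/Fl 28 (log2 fold change 0.96 to 1.56 over all alternatives). Serping1, which encodes the inhibitor of plasma kallikrein, was higher in Fl/Fl than in untreated Fl/+ cultures, at 2.58 against 0.447 CPM (2.52 ± 0.62, adjusted p = 0.0107, edgeR). Without Fl/Fl 37 its log2 fold change was 1.75. It was already higher after 4-OHT in Fl/+ with the replicate block (1.52 ± 0.39, adjusted p = 0.023, edgeR). In Fl/Fl against Fl/+ 4-OHT cultures Serping1 was not past the threshold.

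In the Gq and phospholipase C arm, through which P2ry1, P2ry2, P2ry6 and Bdkrb2 signal, 3 of 9 genes passed after Trrap deletion, where 31.7% of all genes did, and 2 of 9 after 4-OHT, where 13.8% did. Gna14, a Gq-family subunit, rose in both, from 0.506 CPM in untreated to 1.76 in Fl/+ 4-OHT cultures (1.8 ± 0.42, adjusted p = 0.0169, edgeR) and on to 3.92 CPM in Fl/Fl cultures (1.16 ± 0.38, adjusted p = 0.0372, edgeR). The second of these calls was lost without Fl/+ 19, 26 or 36 or Fl/Fl 27 or 39, with log2 fold changes of 0.91 to 1.13. The phospholipase gene Plcb3 fell after deletion from 124 to 70.0 CPM (-0.81 ± 0.08, adjusted p = 0.000120, edgeR), Gnaq, the gene of the Gq subunit itself, was lower by a small step (-0.17 ± 0.06, adjusted p = 0.0416, edgeR), lost in 9 alternatives (log2 fold change -0.21 to -0.14), and the calcium release channel gene Itpr3 rose after 4-OHT from 1.43 to 3.35 CPM (1.23 ± 0.27, adjusted p = 0.0138, edgeR). In the Gi, Gs and adenylyl cyclase arm, used by the adenosine receptors and P2ry12, the cyclase genes Adcy8 and Adcy2 fell after 4-OHT (-1.78 ± 0.22 and -0.87 ± 0.24, adjusted p = 0.000883 and 0.0366, edgeR), the latter call being lost without untreated 19, 24 or 35 or treated 19, 24, 26 or 36 (log2 fold change -0.92 to -0.73). Gnai1, a Gi subunit, rose after 4-OHT from 25.5 to 36.4 CPM (0.52 ± 0.15, adjusted p = 0.0415, edgeR) and fell after Trrap deletion to 24.5 CPM (-0.56 ± 0.10, adjusted p = 0.00195, edgeR). The first of these was lost without any one library other than untreated 36 or treated 26, and with no filter (log2 fold change 0.46 to 0.53). Gnai3 and the cyclase gene Adcy1 fell after deletion as well (-0.37 ± 0.07 and -0.60 ± 0.16, adjusted p = 0.00348 and 0.0148, edgeR). Among the genes of receptor desensitisation, Grk6 fell after deletion (-0.55 ± 0.08, adjusted p = 0.000584, edgeR) and Grk4 rose (0.83 ± 0.23, adjusted p = 0.0178, edgeR), and the arrestin gene Arrb1 rose after 4-OHT (0.57 ± 0.15, adjusted p = 0.0267, edgeR), a call lost without untreated 19 or 35 or treated 19, 35 or 36 and with all libraries in one fit (0.49 to 0.58). Grk4 had been lower after 4-OHT in Fl/+ with the replicate block (-0.75 ± 0.22, adjusted p = 0.0345, edgeR), a call that the unblocked fit did not give. Grk2 was lower after deletion by a step of -0.21 ± 0.07 (adjusted p = 0.0476, edgeR), lost in 10 alternatives (-0.26 to -0.18).

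Against untreated Fl/+ cultures, 19 of 47 partner genes passed in Fl/Fl cultures, 8 higher and 11 lower, or 40.4% where 30.7% of all genes did. Panx1 (-1.26 ± 0.08), Enpp3 (-1.67 ± 0.25) and Adcy8 (-1.83 ± 0.23) were lower, with adjusted p of 1.1e-05, 0.000902 and 0.000320 in edgeR. Gna14 (2.96 ± 0.40), Ace (1.59 ± 0.22) and Enpp1 (1.44 ± 0.24) were higher, with adjusted p of 0.000451, 0.000570 and 0.00146 in edgeR. Of the other genes named by the rule, Itpr3 and the related channel gene Itpr1 were higher (1.02 ± 0.27 and 1.00 ± 0.23), and the adenosine transporter gene Slc29a2, the adenosine kinase gene Adk, Adcy2, Adcy1 and Grk6 were lower, by log2 fold changes of -0.59, -0.38, -1.21, -1.11 and -0.39. All 7 had an adjusted p between 0.00295 and 0.0144 (edgeR).

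**Figure D4:**
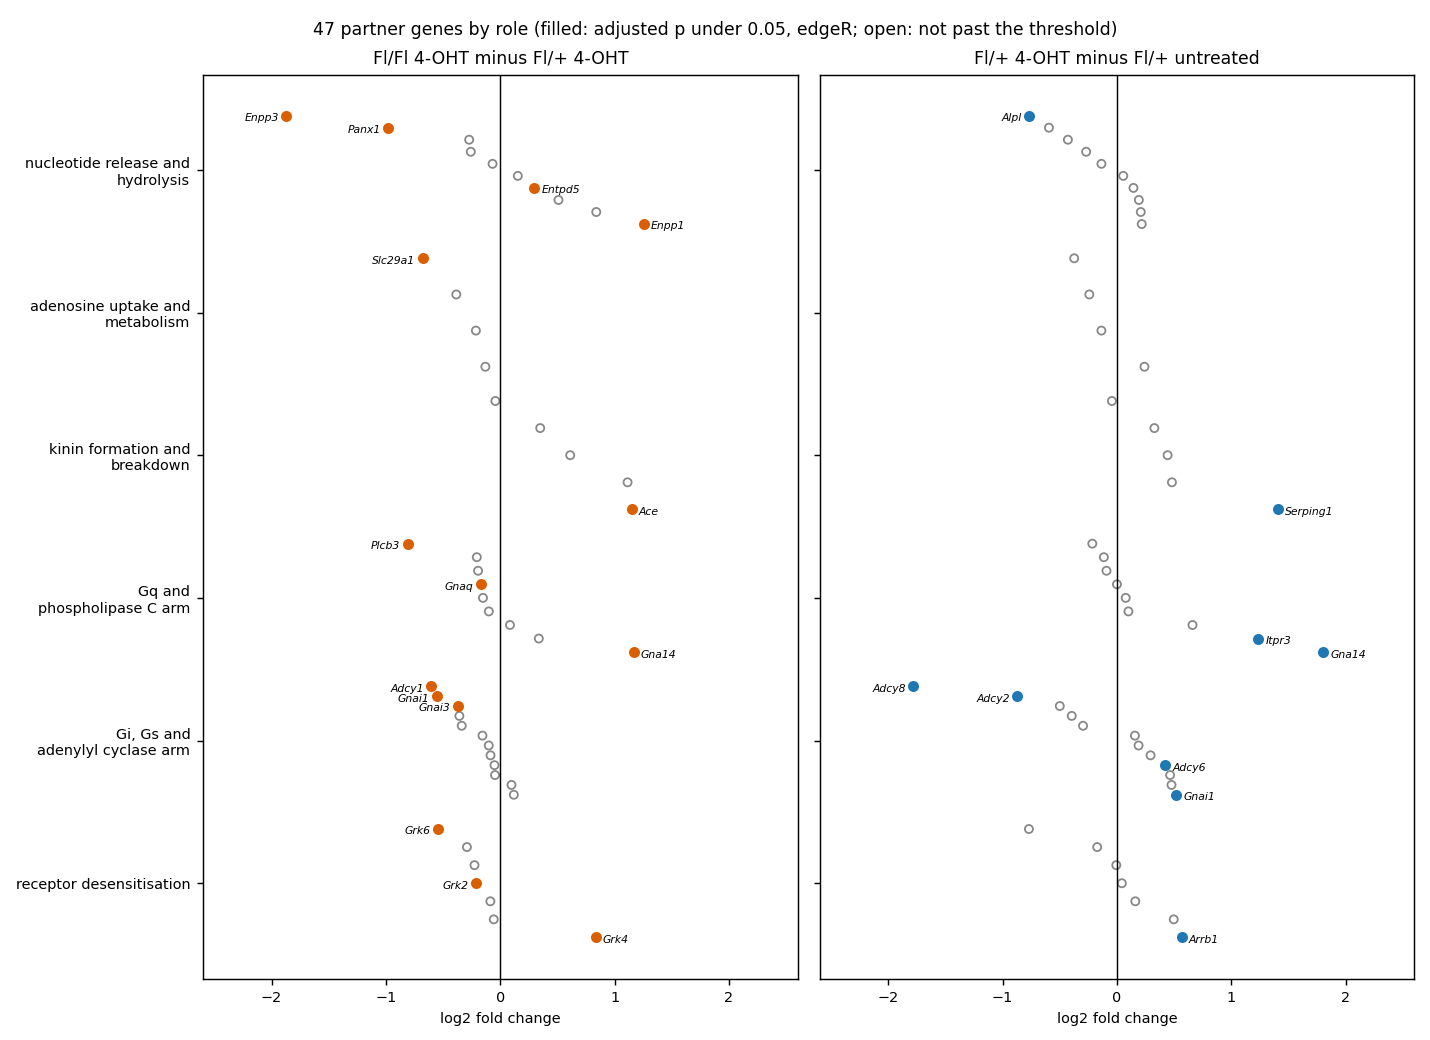
Log2 fold change (horizontal axes) of the 47 partner genes tested, by role, in Fl/Fl against Fl/+ 4-OHT cultures (left) and Fl/+ 4-OHT against untreated cultures (right). Filled points passed an adjusted p of 0.05 in edgeR and open points did not. On the left 10 of the 15 filled points are lower, among them Panx1 and Plcb3, and on the right Gna14 rose most and Adcy8 fell most.

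Cell type markers were read beside these results. Of 12 microglial markers, 10 had at most 3 counts in every library and 5 had none, C1qa, C1qb, C1qc, Trem2 and Tyrobp. The microglial markers reported here summed to 0.0349 to 0.385 CPM in untreated, 0.0338 to 0.176 CPM in Fl/+ 4-OHT and 0.197 to 0.973 CPM in Fl/Fl libraries. P2ry12 was therefore read at up to 30 counts with the defining microglial genes at or near 0. Of 10 oligodendrocyte lineage markers, 6 rose with 4-OHT in Fl/+ cultures, where 13.8% of all genes passed, and 4 did not pass. Mbp stood at 118 against 16.3 CPM and Sox10 at 96.5 against 25.1 CPM, although the summed level overlapped (3373 to 4662 against 3465 to 4514 CPM). Of 10 markers of neural stem cells and astrocytes 2 rose, Gfap and Vim, and 2 fell, Slc1a3 and S100b, and the summed levels were 11070 to 14350 against 11260 to 14590 CPM. With the replicate block 7 further markers passed in edgeR, where 25.7% of all genes did. Olig1 (-0.38), Sox2 (-0.39) and the neuronal genes Rbfox3 (-1.05) and Snap25 (-0.66) were lower on the log2 scale, with adjusted p of 0.0253, 0.0382, 0.0196 and 0.00838, and Prom1 (1.08), Aldh1l1 (0.26) and the pericyte gene Rgs5 (1.36) were higher, with adjusted p of 0.0238, 0.0451 and 0.0240. After Trrap deletion, where 31.7% of all genes passed, 3 of the 10 markers of neural stem cells and astrocytes fell, Sox2, Prom1 and Fabp7, and 2 of 6 neuronal markers fell, Dcx and Tubb3, the latter list with summed levels of 555 to 806 against 816 to 1000 CPM. In Fl/Fl against untreated Fl/+ cultures, where 30.7% of all genes passed, 5 of 6 neuronal markers were lower, 6 of 10 oligodendrocyte lineage markers were higher and 1 lower, and of 10 markers of neural stem cells and astrocytes 1 was higher and 4 lower. Endothelial and fibroblast markers summed to at most 10.04 and 3.51 CPM in any library. The part of these shifts in the levels of P2ry6, Bdkrb2 and Adora2b was not tested, and in such bulk RNA fewer cells of a type and less RNA per cell cannot be told apart.

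The genes whose levels ran most alike across the 15 libraries, on log2(CPM + 0.5), were sought among 13333 genes as a description. Group means were not removed, so r includes the steps between groups and does not measure likeness within them. For Bdkrb2 they were Synpo (r = 0.981), Ecm1 (0.980) and Inf2 (0.975), and for P2ry6 they were Angptl2 (0.978), H19 (0.970) and Ggta1 (0.961), all with a lower mean in untreated than in both 4-OHT groups. Ecm1 went from 2.35 CPM in untreated to 17.4 in Fl/+ 4-OHT and 30.6 in Fl/Fl cultures, and Angptl2 from 1.799 to 23.5 and 23.9 CPM. For P2ry12, with its low counts, they were Hhipl2 (0.874), B930082K07Rik (0.865) and Tmem202 (0.859).

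Several members are chromosomal neighbours. P2rx7 and P2rx4 lie 16.1 kb apart on chromosome 5, P2ry6 and P2ry2 21.9 kb apart on chromosome 7, and Bdkrb2 and Bdkrb1 7.85 kb apart on chromosome 12, each pair with 0 protein-coding genes between. Their levels differed. With 4-OHT in Fl/+ cultures P2ry6 was higher by 4.56 and P2ry2 by 0.66 on the log2 scale, and Bdkrb1 stayed at or below 1 count where Bdkrb2 reached 344.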

How the data were processed

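Poly(A) RNA of the 15 cultures was sequenced by the authors from stranded, single-end libraries pooled over the same lanes. Per the study's methods and processing notes, reads were extracted with bcl2fastq 1.8.4, mapped to GRCm38 with STAR 2.5.4b and assigned to Ensembl genes with featureCounts 1.5.0 in stranded mode, uniquely mapped reads only. The authors deposited these as raw counts, one row per gene, without normalization. Of 53801 genes, 53706 matched a GENCODE annotation of GRCm38. Genes overlapping on one strand or near-identical copies lose reads in this counting. PCR copies were counted, so floors cover counting error only.

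Groups, replicate numbers, age and labelled sex came from the labels. 3 comparisons were fitted in R 4.3.3 with edgeR 4.0.16 (filterByExpr with a minimum count of 10, TMM, quasi-likelihood F test without covariates, Benjamini-Hochberg adjustment over all genes tested, called under 0.05), each on its 10 libraries. Another fit tested the interaction of genotype with labelled sex. Each SE belongs to a log2 fold change. Tests were checked on simulated counts. The members and the gene lists were chosen with earlier results of these data known, so members carry no p in the 3 comparisons, and the adjusted p of other listed genes, taken from the fit over all genes, is no independent support. All members and all further receptors that passed the filter were eligible to be named, and of the partner genes up to 3 per role and comparison with an adjusted p under 0.05 and a mean of at least 1 CPM, by size of change. For the member with the largest change in each comparison, the 3 genes with the highest Pearson r to it were named, and Trrap as the check of the labels. The markers, Nt5e and the kininogen and kallikrein genes were named outside this rule, after their values were seen. One microglial marker is not reported here.

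In Fl/+ cultures residuals around the group means over 15435 genes correlated at r = 0.204 to 0.586 between cultures of the same title number and at -0.489 to 0.317 between others, so the number was taken to pair them, and an alternative fit carried it as a replicate block. No 2 libraries agreed within counting noise. Other settings tried were DESeq2 1.42.0 with its Wald test, its size factors or library size alone in edgeR, no filter or at least 10 counts in every library, all 15 libraries in one fit, labelled sex as a covariate, the block, each library left out in turn, and, added after seeing the data, a term for title numbers of 35 or above. The dose of 4-OHT is not given, since the labels and the methods state it differently, as they do the length of exposure.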

Additional observations from a re-analysis of the deposited data

Results flagged for a closer look

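3 of 27 groups of 5 libraries, one per receptor gene and group with counts above the floor, held a library whose gap to its nearest neighbour exceeded 0.71 of the group's range (Dixon's 95% critical value) on the scale of log2(CPM + 0.5), and chance flags about 1 in 20. P2ry2 stood at 1.70 CPM in Fl/+ untreated 36, below the 3.20 to 4.06 CPM of the other untreated libraries (gap 0.714 of the range on that log2 scale). P2ry2 stood at 13.9 CPM in Fl/Fl 37, above 5.35 to 6.91 CPM in the other Fl/Fl libraries (0.737 on the log2 scale). Bdkrb2 stood at 22.2 CPM in the same library, above 5.78 to 8.53 CPM (0.718 on the log2 scale).

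P2ry1, with an interaction of genotype and labelled sex of 1.56 on the log2 scale, and Adora1, with -0.91, passed edgeR's test of the interaction itself. Libraries numbered 35 or above were all labelled male in the Fl/+ 4-OHT group and all labelled female in the Fl/Fl group. A difference between title numbers therefore also enters this interaction, and the test cannot tell them apart. Fl/Fl 39, labelled female, held 6142 Y-linked and 9 Xist counts. Each call was also lost when certain single libraries were left out. Neither gene passed once a term for title numbers of 35 or above was added, where the interactions were 0.56 and -0.38.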

How the results depend on the processing

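Of the receptor counts, the 3 of 8 members past the threshold with 4-OHT in Fl/+ cultures remained 3 whichever library was left out, and became 1 when at least 10 counts were asked of every library, since P2ry6 and Bdkrb2 then were not tested. In Fl/Fl against Fl/+ 4-OHT cultures the single call of P2rx4 became 2 with DESeq2 and 4 with the term for title numbers of 35 or above, and ran from 0 to 2 as libraries were left out. It was 0 without Fl/+ 19, 24 or 36 or Fl/Fl 28 or 29, with 2 to 4 members at an unadjusted p under 0.05 in edgeR, and 2 without Fl/+ 26 or Fl/Fl 37, in the latter case P2rx7 and P2ry6 in place of P2rx4. Members with an interaction with labelled sex were 0 with the term for numbers and 0 to 4 as libraries were left out, 0 without Fl/+ 26, 35 or 36 or Fl/Fl 29 (3 to 5 at an unadjusted p under 0.05 in edgeR), 1 without Fl/+ 24 or Fl/Fl 27, 28 or 37, and 4 without Fl/Fl 39. The cause was not tested.

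With 4-OHT in Fl/+ cultures the genes called among all tested were 2044, 3809 with the replicate block, 3170 with the term for numbers and 1271 to 2522 as libraries were left out, lowest without treated 19 and next without treated 35 (1311). Further receptors and partners called numbered 10, against 20 with the block, 18 with DESeq2, 17 with labelled sex as a covariate, 18 with the term for numbers and 6 to 13 as libraries were left out, 6 without untreated 35 or treated 19 or 24. Beyond P2ry1 the block changed no call of a member. No value of a member that was called in the main fits, without covariates or block, changed sign in any alternative. Low counts limit P2ry12 and Bdkrb1, and untreated P2ry6.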

Other observations

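Some further receptor genes had too few counts to pass the filter in most comparisons, and their counts are given with no test. P2rx1 had 14, 51, 16, 1 and 0 counts in untreated Fl/+ cultures 19, 24, 26, 35 and 36, and at most 11 in any Fl/+ 4-OHT and 4 in any Fl/Fl library. P2rx2 had 2 to 7 counts in untreated cultures and 10 to 15 in Fl/Fl cultures, with Fl/+ 4-OHT libraries at 3 to 18. P2ry4, a uridine nucleotide receptor, had 1 to 4 counts in 4 of the Fl/+ 4-OHT libraries and none in the other 11.

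Among neuronal markers, Dcx, a gene of migrating neuroblasts, fell after Trrap deletion from 44.5 to 7.75 CPM (log2 fold change -2.51 ± 0.41, adjusted p = 0.00123, edgeR) with groups that did not overlap, while its level in untreated Fl/+ cultures was 39.7 CPM.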
